A study of Oryza sativa with 2 samples.

Results

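The genes described here are 10 rice WRKY transcription factors known from work on defence, taken from the 38511 loci listed in the deposited files by a fixed list of locus identifiers: WRKY13 (LOC_Os01g54600), WRKY24 (LOC_Os01g61080), WRKY28 (LOC_Os06g44010), WRKY30 (LOC_Os08g38990), WRKY45 (LOC_Os05g25770), WRKY53 (LOC_Os05g27730), WRKY62 (LOC_Os09g25070), WRKY70 (LOC_Os05g39720), WRKY71 (LOC_Os02g08440) and WRKY76 (LOC_Os09g25060). Both libraries list all 10. The list's rule uses no measured value, but the list was chosen with earlier results of these data known. RNA was measured by polyA RNA-seq in 2 libraries of whole, wild-type, 3-week-old plants of Oryza sativa cultivar Nipponbare, the japonica variety on which the rice reference genome is based. The plants were grown in Yoshida nutrient solution with days of 10 h light, at 800 μmol per square metre and second, and 14 h of dark, and the labels name no pathogen, elicitor or other defence treatment. The study belongs to work on N6-methyladenine in rice DNA and gene expression. Both libraries form 1 group with no treated group beside it, and the labels do not say if separate plants were used, so their spread may be technical. The values show how much of each transcript the plants held and how well the libraries repeat each other, and no test of a condition can be made.

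WRKY proteins bind DNA through a zinc-finger domain named after a conserved peptide, and recognise W-box elements, which are common in promoters of defence genes and of WRKY genes themselves. In rice, WRKY45 acts downstream of salicylic acid and is required for the blast resistance induced by chemical activators of that pathway. Group I members carry a pair of WRKY domains, and several of them are phosphorylated by mitogen-activated protein kinases. Subgroup IIa members form a small set of factors known chiefly as repressors of defence or hormone responses.

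All 10 WRKY genes were expressed in these seedlings, at levels spread over a 191-fold range. Levels are in FPKM, fragments per kilobase of transcript per 1000000 fragments. This unit is per length, so the genes can be set side by side. The annotation behind those lengths is not stated, which limits the comparison. Of the 10 genes, 10 had a mean of 1 FPKM or more, as had 49.8% of all listed loci. At 10 FPKM or more were 8 of the 10, against 24.8% of all loci, and at 100 FPKM or more were 2, against 2.65%. The median of the 10 gene means was 57.9 FPKM. The median of all loci was 0.979 FPKM, and that of loci at 1 FPKM or more was 9.91 FPKM. Within single libraries the median of the 10 genes was 60.6 FPKM in library 1 and 49.9 FPKM in library 2, an SD of 7.6 FPKM. Values after ± are SDs with n = 2 libraries throughout. In RNA from whole plants, a low level in every cell and a high level in few cells cannot be told apart.

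**Figure D1:**
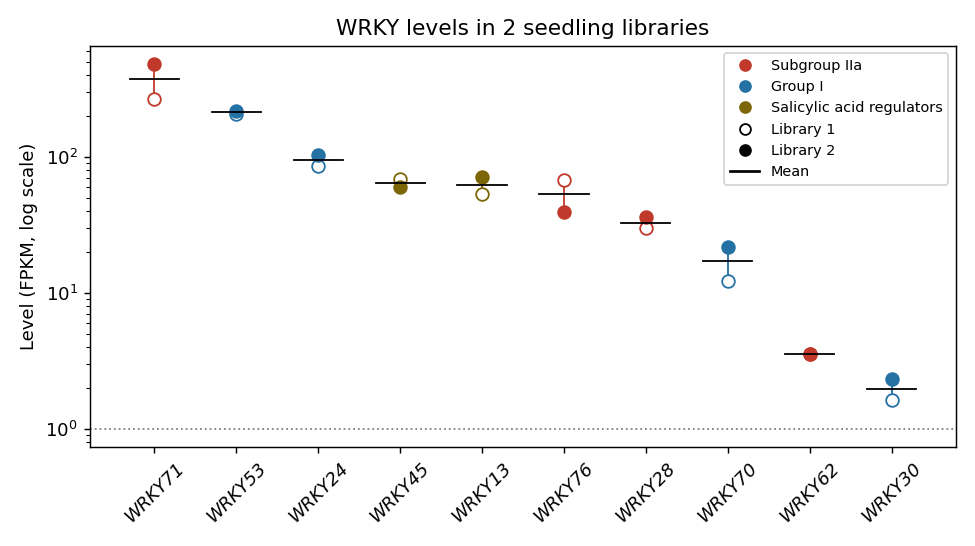
Level of each WRKY gene in FPKM on a log axis, ordered by mean. Open circles are library 1, filled circles library 2 and black lines the mean. Colours mark subgroup IIa, group I and the salicylic acid regulators WRKY45 and WRKY13, and the dotted line marks 1 FPKM. WRKY71 and WRKY53 are the highest in both libraries, and WRKY62 and WRKY30 the lowest in both.

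Subgroup IIa held both the most abundant of the 10 transcripts and a member close to the bottom. WRKY71, known in cereal aleurone as a repressor of gibberellin responses and in rice as a factor that raises resistance to bacterial blight when overexpressed, stood at 268 FPKM in library 1 against 482 FPKM in library 2. Its mean was 375 ± 151 FPKM, which placed it at rank 178 among the 38511 loci, above 99.5% of them. Library 2 was 1.80-fold higher, so the level of WRKY71 is known less precisely than its place at the top of the order.

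WRKY76, a repressor of defence genes and phytoalexin synthesis during blast infection, had 67.6 FPKM in library 1 against 39.7 FPKM in library 2. It moved in the opposite direction to WRKY71, being 1.70-fold higher in library 1, with a mean of 53.7 ± 19.8 FPKM. The ratio of WRKY71 to WRKY76 within a library was thus 3.97 in library 1 and 12.2 in library 2.

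WRKY28, a negative regulator of basal resistance to blast, had 29.9 FPKM in library 1 against 36.0 FPKM in library 2, a mean of 32.9 ± 4.3 FPKM. WRKY62, a negative regulator of immunity to bacterial blight that interacts with the receptor kinase XA21, had 3.54 FPKM in library 1 against 3.56 FPKM in library 2. The values of WRKY62 were the closest together of the 10 genes, at 3.55 ± 0.01 FPKM. Its level exceeded that of 61.6% of all loci but only 22.9% of those at 1 FPKM or more.

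WRKY76 and WRKY62 differ by 10 in locus number on chromosome 9, and no other listed identifier lies between them. In the RefSeq gene table of assembly ASM3414082v1, the genes with these names also adjoin, with 0 annotated genes between them. WRKY76 was 19.1-fold higher than WRKY62 in library 1 and 11.1-fold higher in library 2. The values of the 2 genes did not overlap. How reads that match more than 1 locus were counted is not given in the sources used here.

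Among the 4 group I genes, WRKY53 was the highest and WRKY30 the lowest, 108-fold apart in their means. WRKY53, a blast- and elicitor-responsive factor that also takes part in brassinosteroid signalling, had 209 FPKM in library 1 against 217 FPKM in library 2. With a mean of 213 ± 6 FPKM it exceeded 99.1% of all loci, and the libraries differed by an SD of 2.7% of the mean. WRKY24, known as a repressor of gibberellin and abscisic acid responses in aleurone cells, had 86.0 FPKM in library 1 against 104 FPKM in library 2, a mean of 95.1 ± 12.9 FPKM. It stood 2.43-fold below WRKY53 in library 1 and 2.08-fold below it in library 2.

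WRKY70, which in rice favours defence against stem borers over growth, had 12.3 FPKM in library 1 against 21.8 FPKM in library 2, a mean of 17.0 ± 6.7 FPKM. Library 2 was 1.78-fold higher, about as far apart as for WRKY71. WRKY30, whose overexpression raises resistance to blast and bacterial blight, had 1.62 FPKM in library 1 against 2.31 FPKM in library 2. Its mean of 1.96 ± 0.49 FPKM was the lowest of the 10 genes, exceeding 55.8% of all loci and 11.3% of those at 1 FPKM or more.

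The salicylic acid regulators WRKY45 and WRKY13 had like levels in the middle of the order. WRKY45 had 69.2 FPKM in library 1 against 60.1 FPKM in library 2, a mean of 64.6 ± 6.4 FPKM. WRKY13, which activates salicylic acid genes and lowers jasmonic acid genes when overexpressed, had 53.5 FPKM in library 1 against 70.9 FPKM in library 2, a mean of 62.2 ± 12.3 FPKM. WRKY45 was the higher of the 2 in library 1, by 1.29-fold, and the lower in library 2, with a ratio of 0.848, so their order was not resolved. Their means exceeded 95.6% and 95.4% of all loci.

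**Figure D2:**
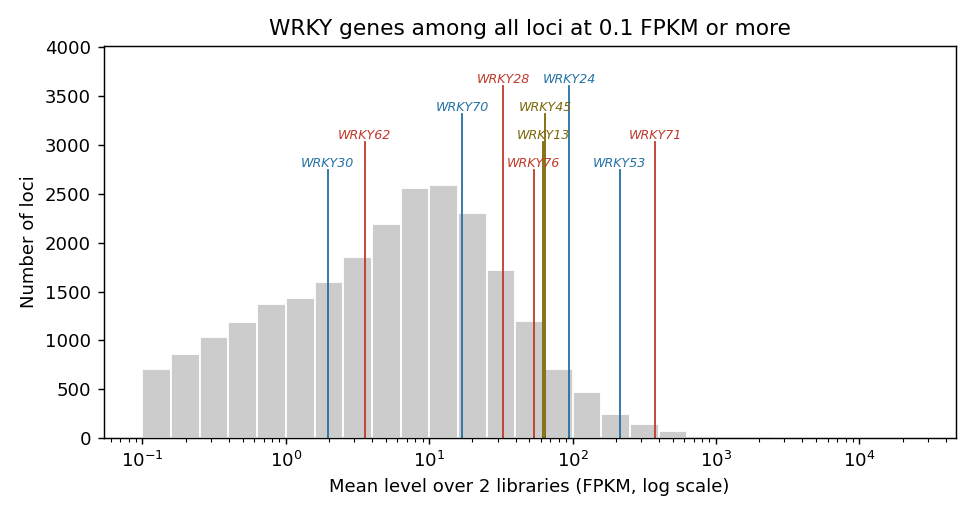
Number of loci by mean level over both libraries (FPKM, log axis) for loci at 0.1 FPKM or more, in grey, with a coloured line at the mean of each WRKY gene; line heights carry no value. The 7 genes from WRKY28 at 32.9 FPKM to WRKY71 at 375 FPKM lie in the upper tail, and WRKY30 and WRKY62 lie left of the peak.

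In the order WRKY71, WRKY53, WRKY24, WRKY45, WRKY13, WRKY76, WRKY28, WRKY70, WRKY62, WRKY30, 7 of the 9 adjoining pairs had values that did not overlap between the 2 genes. The exceptions were WRKY45 with WRKY13 and WRKY13 with WRKY76. WRKY76 ranked above WRKY13 in library 1 and below it in library 2, and the 7 genes outside this trio held the same place in both libraries. The separation of WRKY76 from WRKY28 was narrow, with 39.7 FPKM as the lower value of WRKY76 and 36.0 FPKM as the higher value of WRKY28. The widest step was that from WRKY70 to WRKY62, 4.80-fold in the means.

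A pair of genes held most of the summed level. WRKY71 and WRKY53 together made up 59.6% of the sum of the 10 genes in library 1 and 67.4% in library 2. WRKY71 alone held 72.6% and 85.9% of the subgroup IIa sum, and WRKY53 held 67.7% and 62.8% of the group I sum. The subgroup IIa sum was 369 FPKM in library 1 against 562 FPKM in library 2, and the group I sum was 309 against 345 FPKM. The ratio of these sums was 1.20 in library 1 and 1.63 in library 2, so subgroup IIa had the higher sum in both. This direction rested on WRKY71: without it the ratio was 0.327 in library 1 and 0.230 in library 2. Without WRKY53 it was 3.70 and 4.38, and without both genes it was 1.01 and 0.618. Over all 10 genes the sum was 801 FPKM in library 1 against 1038 FPKM in library 2, or 0.119% and 0.159% of all FPKM in the library. Of these sums, WRKY71 alone held 268 and 482 FPKM. Without WRKY71, the subgroup IIa sum was lower in library 2, at 101 FPKM in library 1 against 79.3 FPKM in library 2.

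None of the 10 genes was 2-fold apart between the libraries, where 6.75% of the 19187 loci at a mean of at least 1 FPKM were. Ratios were taken as log2 of (FPKM + 1) in library 2 over library 1, a scale that understates differences at low levels. At 1.5-fold or more stood 3 genes, against 16.5% of those loci: WRKY71 with a log2 ratio of 0.84, WRKY70 with 0.78 and WRKY76 with -0.75. These 3 lay at or towards the edge of what loci of like level showed. WRKY70 lay above the 95th percentile of loci at 10 to 30 FPKM, which was 0.71. WRKY76 lay just below the 5th percentile of loci at 30 to 100 FPKM, which was -0.74. WRKY71 lay within the 95th percentile of loci at 300 to 1000 FPKM, which was 0.92. Among loci within 2-fold of its own mean, 11.6% of 363 were further apart than WRKY71, 7.8% of 7030 were further apart than WRKY70 and 9.9% of 3426 were further apart than WRKY76. At the other end, 98.5% of 5904 such loci were further apart than WRKY62 and 89.7% of 795 were further apart than WRKY53.

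Library 2 was the higher for 8 of the 10 genes, and for 52.9% of loci at 1 FPKM or more. WRKY45 and WRKY76 were higher in library 1. The count became 7 of 10 after the libraries were scaled to a median ratio of 1, because the log2 ratio of WRKY62 was close to 0 at 0.0056 and turned to -0.019. The median log2 ratio of the 10 genes was 0.27, beside 0.02 over all loci at 1 FPKM or more. The median level of the 10 genes went the other way, at 60.6 FPKM in library 1 against 49.9 FPKM in library 2. With 1 library on each side, no difference between the libraries was tested.

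**Figure D3:**
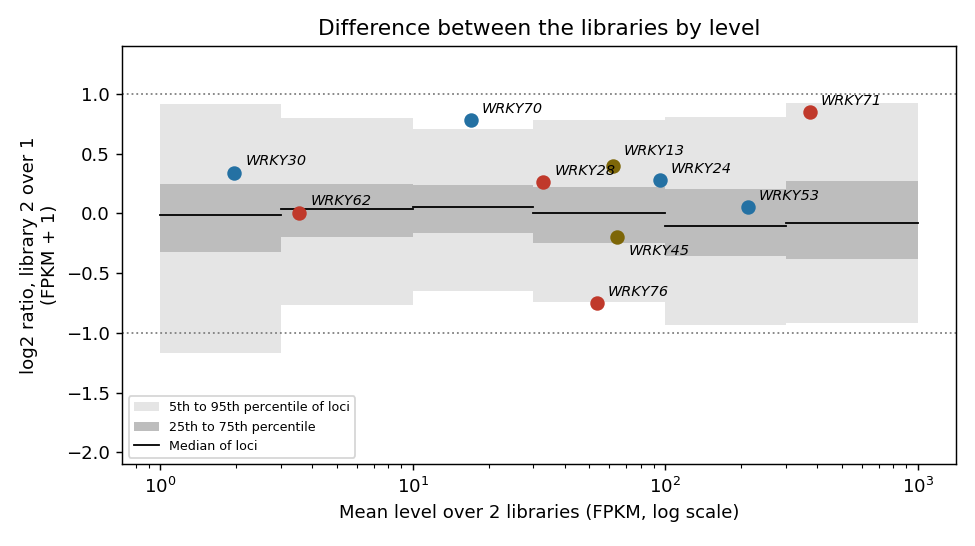
The log2 ratio of library 2 over library 1 (FPKM + 1) against mean level (FPKM, log axis) for each WRKY gene, over grey bands giving the 5th to 95th and 25th to 75th percentiles and black lines the median of all loci in 6 ranges of level; dotted lines mark a 2-fold difference. All 10 genes lie between the dotted lines, with WRKY71 at 0.84, WRKY70 at 0.78 and WRKY76 at -0.75 the furthest from 0. WRKY70 lies above the 5th to 95th percentile band of its range of level, and WRKY76 lies just below that of its own. Among loci within 2-fold of the gene's own mean, 7.8% were further apart than WRKY70 and 9.9% were further apart than WRKY76.

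The loci listed beside the WRKY genes ranged in mean level from 0 to 73.2 FPKM. Taking the nearest listed identifier on each side, and leaving out WRKY62 and WRKY76 as neighbours of each other, 18 adjoining loci were found. Of these, 7 reached 1 FPKM, or 38.9%, beside 49.8% of all listed loci. A further 6 were listed at 0 in both libraries, and the share of all listed loci at 0 in both was not taken. Since 7 of the 10 WRKY genes lie among the highest 10% of all loci, most loci would stand below them. Both loci beside WRKY53 were listed at 0, while WRKY53 itself stood at 213 FPKM. Both loci beside WRKY28 stayed at or below 0.185 FPKM in each library. Higher than their WRKY gene were 3 of the 18: a locus beside WRKY13 at 73.2 ± 18.6 FPKM, a locus beside WRKY70 at 19.0 ± 2.8 FPKM and a locus beside WRKY30 at 8.95 ± 1.18 FPKM. The first 2 overlapped with the values of their WRKY gene and the third did not.

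Beside WRKY71, the locus LOC_Os02g08420 had 14.9 FPKM in library 1 against 39.0 FPKM in library 2, so it was higher in library 2 as WRKY71 was. The locus LOC_Os01g54620 beside WRKY13 went the other way, with 86.3 FPKM in library 1 against 60.0 FPKM in library 2, while WRKY13 was higher in library 2. Of the 7 adjoining loci at 1 FPKM or more, 5 were higher in the same library as their WRKY gene. The other 2 were higher in the other library. Among the 5, LOC_Os01g54590 beside WRKY13 hardly differed, at 27.6 FPKM in library 1 against 28.1 FPKM in library 2. Library 2 was the higher for 8 of the 10 WRKY genes and for 52.9% of all loci at 1 FPKM or more. Whether adjoining loci go together was not tested. The locus on the other side of WRKY71 was listed at 0 in both. The files give no names for these loci, and whether reads were counted by strand is not stated, so reads from overlapping genes on opposite strands cannot be told apart.

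**Figure D4:**
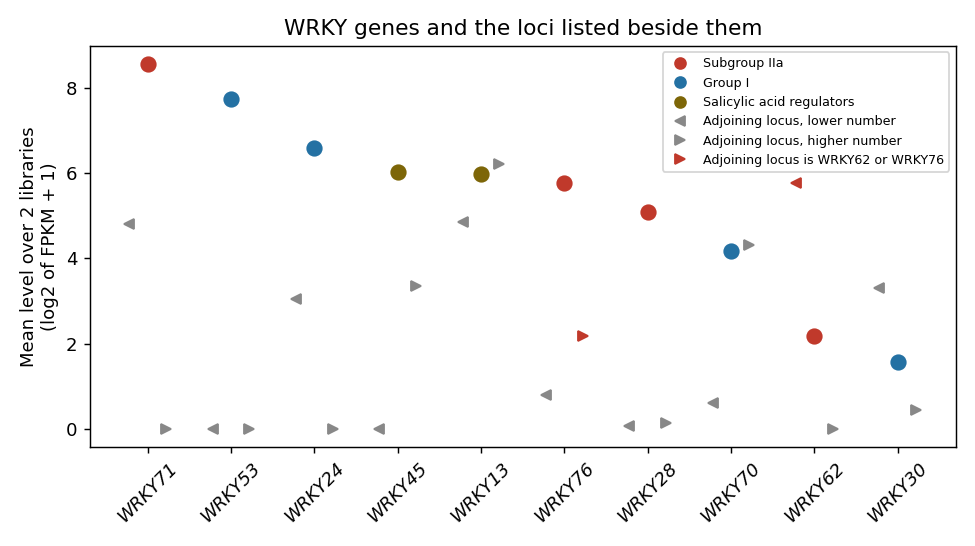
Mean level over both libraries, as log2 of (FPKM + 1), of each WRKY gene (circle) and of the nearest listed locus with a lower (left-pointing) and a higher (right-pointing) number; red triangles are WRKY62 and WRKY76 shown as neighbours of each other. Triangles at 0 are loci listed at 0 in both libraries, including both beside WRKY53.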

How the data were processed

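The authors deposited FPKM values, 1 for each locus in a library, per the file headers, and Cufflinks was used, per the submitters' processing notes. For the aligner, genome build, annotation and strand setting, nothing is stated in the labels or headers. The deposited FPKM values summed to 670155 and 651935, were not scaled further, and are not counts, so no count model was applied. The number of fragments per library is unknown, so no counting interval is given.

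The 10 genes and the subgroup lists were chosen with earlier results of these data known. Gene names come with that list. The RefSeq table of ASM3414082v1 names 4 of the 10, each on the chromosome that its identifier gives, but pairs 0 of the files' identifiers with a name. A list of 20 further defence symbols therefore matched 0 identifiers and is not reported, and the tissue label was not checked against marker genes. All 10 members are named, and adjoining loci were found by identifier number. Means and SDs are over 2 libraries. Ratios use log2(FPKM + 1) with a filter at a mean of 1 FPKM, and percentages over all loci are the background. Alternatives were other thresholds, a pseudocount of 0.1, a common sum of 1000000, median-ratio scaling and each library alone. Code was checked on simulated data and run in Python 3.11.15 with pandas 2.3.3 and numpy 2.4.6.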

Additional observations from a re-analysis of the deposited data

How the results depend on the processing

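All 10 genes stayed at 1 FPKM or more in each library alone. They also did after rescaling to a common sum of 1000000, where 20411 of the 38511 loci reached 1. All 10 passed a threshold of 0.1 FPKM and 8 reached 5 FPKM. The shares of all loci at 0.1 FPKM, at 5 FPKM and in each library alone were not taken, so these counts have no background beside them. None was 2-fold apart under any of the 4 alternatives for ratios. The median level of 57.9 FPKM became 87.6 with the common sum, which raises every value by construction, and lay between 49.9 and 60.6 in single libraries. The ratio of the subgroup IIa sum to the group I sum, 1.42 on the means, was 0.276 without WRKY71, 4.08 without WRKY53 and 0.790 without both, alternatives chosen after the data were seen, and lay between 1.20 and 1.63 in single libraries. The log2 ratio of WRKY62 turned to -0.019 under median-ratio scaling. The order by mean held for all 10 genes under both scalings, and 8 kept their place in each library alone. No paired analysis was possible because both libraries belong to the same group. The depth is not known, so no counting interval can be given for any of the 10 genes.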
